A study of Danio rerio with 15 samples.

Results

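Whole zebrafish embryos exposed to perfluorobutane sulfonamide (FBSA) were compared with embryos exposed to perfluoropentanoic acid (PFPeA), 1 pair of compounds at 1 dose and 1 time. The comparison set the 3 libraries labelled FBSA against the 3 labelled PFPeA, 6 of the series' 15 RNA-seq libraries. The 3 libraries of unexposed controls showed which compound had moved. All 15 libraries were fitted together and shared the estimate of the spread behind the p-values. Both compounds carry a perfluorobutyl chain. FBSA ends in a sulfonamide and PFPeA in a carboxylic acid.

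FBSA and PFPeA were given at 47 uM and the control received 0 uM. All embryos were of the wild-type Tropical 5D line, had their chorions removed 4 hours after fertilization, and sat in 0.5% methanol, controls included. Exposure began at 8 hours and sampling took place 48 hours after fertilization. Each library held messenger RNA of 10 pooled embryos, captured by its poly(A) tail with oligo(dT) and sequenced on the BGISEQ-500. Whether a group's 3 pools were of different clutches is not said in the labels; the p-values therefore reflect pool-to-pool spread, which may be technical.

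Short-chain per- and polyfluoroalkyl substances are mobile in water and are used in place of longer-chain ones. At the sampled age the zebrafish embryo has a beating heart, contracting body muscle, a differentiating nervous system, skin ionocytes that take up salts, and a hatching gland that stores the enzymes that open the egg shell.

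Levels are given in CPM, read counts relative to the size of each library, and differences as log2 values with an SE (standard error) or a 95% CI (confidence interval). A gene was called when its adjusted p was under 0.05 in edgeR's quasi-likelihood test. The adjustment was by the Benjamini-Hochberg method across the 23874 genes that entered the test. Unless another fit is named, every adjusted p below comes from this test of all 15 libraries. A named fit, such as that with copies summed, had its own adjusted p from the same kind of test. Reads in genes ranged from 32420346 to 32686343 per FBSA library, 31853175 to 32215061 per PFPeA library and 24552649 to 32630731 per control library. The median 95% CI of the FBSA to PFPeA difference reached 0.442 to either side. All 25 marker genes of muscle, neurons, lens, blood, heart, skin, hatching gland, vessels, immune cells, pituitary, liver and pancreas were above 0 in all 9 libraries. Some were near the floor: the macrophage marker mpeg1.1 fell to 0.0624 CPM and the pancreas marker prss59.1 to 0.0632 CPM in their lowest library. The liver marker fabp10a had a mean of 0.533 CPM in FBSA. On the first principal component of all 15 libraries, which held 14.8% of the variance, FBSA 1, 2 and 3 scored 36.5, 75.2 and 34.5, and PFPeA 1, 2 and 3 scored 9.05, -14.3 and -17.9. FBSA 2 thus lay farthest out, and PFPeA 1 lay nearest to the FBSA libraries.

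Embryos exposed to FBSA and embryos exposed to PFPeA differed in 1971 genes, 8.26% of those tested. Of these, 974 (4.08%) were higher and 997 (4.18%) lower in FBSA. These shares over all genes are given for scale beside the counts of the gene lists below. The lists and their members were chosen with earlier results of these data known. A list count above these shares therefore cannot be read as enrichment. Most differences were small: 87.0% of the called genes differed by under 2-fold, and the median fold was 1.459 among those higher and 1.297 among those lower. The larger differences were mostly increases, with 186 genes at least 2-fold higher and 70 at least 2-fold lower in FBSA. The 3 FBSA and 3 PFPeA libraries did not overlap in 6394 genes (26.8% of those tested), 1948 of which were called. Genes named for the largest differences or the smallest p were picked among genes without such overlap. For them, the lack of overlap between FBSA and PFPeA is no added support. The number called depended on which libraries gave the estimate of the spread. With the 6 FBSA and PFPeA libraries fitted alone it was 438. In the fit of all 15 libraries the number also depended on single ones. It was 787 without FBSA 2, 934 without PFPeA 2 and 908 without PFPeA 3, and between 1688 and 1877 without any other single FBSA, PFPeA or control library. Of the 1971 genes, 749 were called without FBSA 2, 889 without PFPeA 2 and 878 without PFPeA 3, and the sign of the difference was the same for all 1971 in each of these fits.

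The control libraries placed most of the movement in FBSA. For 1866 of the 1971 genes (94.7%) the control level lay nearer to PFPeA than to FBSA, and for 105 (5.33%) it lay nearer to FBSA. The step from FBSA to the control made up a median of 94.0% of the difference between FBSA and PFPeA, with quartiles of 76.5% and 110%. Of the 1971 genes, 1396 (70.8%) were also called in FBSA against the control, where 2274 genes (9.53%) were called, 1260 (5.28%) higher and 1014 (4.25%) lower. None was called in PFPeA against the control by edgeR (0.0% of those tested), and DESeq2 called 15. There 1243 of the 23874 genes had an unadjusted p under 0.05 in edgeR, close to the share of 0.05 expected without any difference. The comparisons share libraries, so these counts describe positions and are not independent tests. In PFPeA against the control edgeR called 1 gene without PFPeA 2, 2 without PFPeA 3 or Control 1, and 0 without any other of the 9 libraries. In FBSA against the control the count was 1020 without FBSA 2, 1296 without Control 1, 1309 without Control 2 and 1430 without Control 3.

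**Figure D1:**
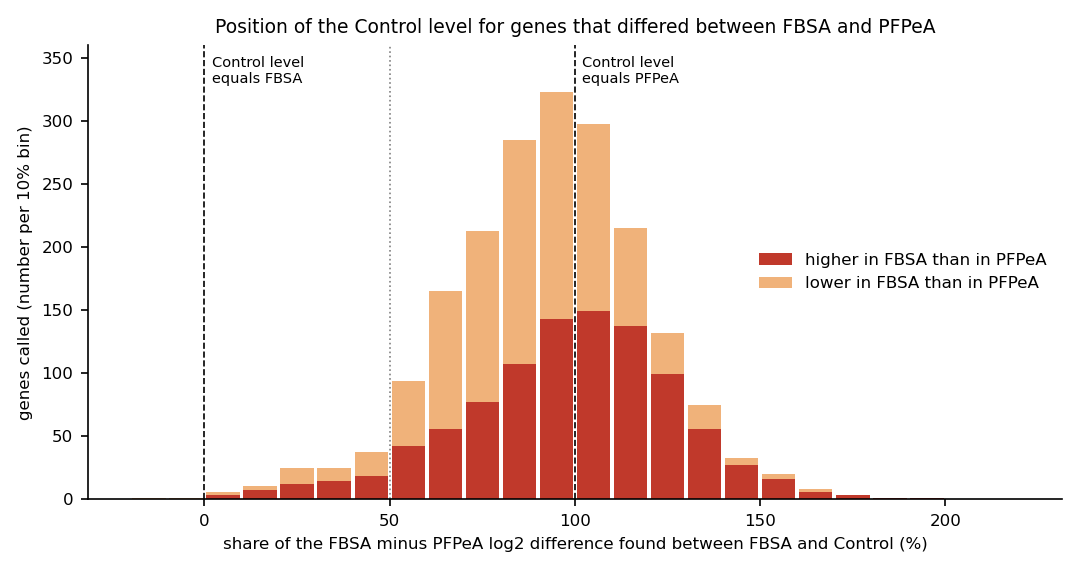
Number of genes called in FBSA against PFPeA (vertical axis, per 10% bin) by the share of their log2 difference that lies between FBSA and the control (horizontal axis, %). At 100% the control level equals that of PFPeA, at 0% that of FBSA, the dotted line marks 50%, and colours separate the 974 genes higher from the 997 lower in FBSA; most bars stand around 100%, and 105 genes lie below 50%.

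Transporters of small acids and of ions led the differences by smallest p. The monocarboxylate transporter family carries lactate, pyruvate, ketone bodies and related acids across membranes. Its member slc16a9b had 115, 138 and 101 CPM in FBSA 1, 2 and 3, against 33.5, 26.8 and 26.8 CPM in PFPeA 1, 2 and 3 and 27.6, 21.6 and 23.4 CPM in the controls. No FBSA library came near a PFPeA or control library, and the difference between FBSA and PFPeA was 2.02 (SE 0.14, adjusted p = 5.56e-06). Its paralog slc16a9a, at 4.70, 8.04 and 2.87 CPM in FBSA against 0.618, 0.569 and 1.06 CPM in PFPeA, was 2.79 higher (SE 0.44, adjusted p = 0.00164). The member slc16a6b had 60.2, 74.2 and 55.9 CPM in FBSA, 26.4, 18.7 and 18.4 CPM in PFPeA and 22.9, 17.9 and 17.6 CPM in the controls (1.58, SE 0.15, adjusted p = 4.12e-05). These 3 were the members called of the 17 tested in the list of monocarboxylate transport, all higher in FBSA, and the list's median was 0.07 against 0.01 over all genes. All 3 remained called without any single library. Other members were close between the compounds: slc16a3, a lactate exporter, differed by 0.06 (95% CI -0.20 to 0.32), slc16a6a, which exports ketone bodies from the zebrafish liver, by 0.18 (95% CI -0.03 to 0.39), and bsg, the partner protein of several family members, by 0.13 (95% CI 0.01 to 0.25, adjusted p = 0.165). The count table also holds a numbered copy of slc16a9a, and with copies summed its difference was 2.80.

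An anion exchanger and sodium pump subunits were higher in FBSA, while other pump subunits were lower. The sodium pump drives ion uptake in the ionocytes of embryonic skin, and neurons use their own subunits of it. The anion exchanger slc4a2a, which swaps chloride for bicarbonate, had the smallest p of all genes named here, with 57.8, 47.7 and 54.8 CPM in FBSA against 21.5, 20.3 and 18.9 CPM in PFPeA and 19.2, 20.9 and 20.7 CPM in the controls (1.4, SE 0.09, adjusted p = 4.45e-06). The pump subunit atp1b1b had 103, 110 and 112 CPM in FBSA, 61.1, 63.4 and 54.1 CPM in PFPeA and 56.6, 54.2 and 56.1 CPM in the controls (0.87, SE 0.06, adjusted p = 5.56e-06). For both genes the PFPeA and control libraries overlapped, and the FBSA libraries lay above them. Its partner atp1a1a.2 was 0.83 higher in FBSA (SE 0.07), at 191 ± 4.77 CPM, against 108 ± 13.4 CPM in PFPeA and 104 ± 1.54 CPM in the controls (SD, n = 3 each). Of the lower subunits, atp1a3a, known from neurons, was at 285 ± 41.5 CPM in FBSA and 406 ± 28.5 CPM in PFPeA (-0.51, adjusted p = 0.00188), and atp1b2a differed by -0.37 (adjusted p = 0.00519).

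Of 40 tested genes of ionocytes and ion pumps, 12 were higher and 6 lower in FBSA, with a median of 0.25. The potassium channel genes kcnj1a.3 (7.58 ± 0.967 CPM in FBSA, 2.59 ± 0.161 CPM in PFPeA) and kcnj1a.2 (1.61, SE 0.33) and the sodium chloride cotransporter gene slc12a10.2 (1.57, SE 0.25) were among the higher ones. The ionocyte regulator foxi3a was at 0.47 (95% CI 0.11 to 0.83) and missed the test at an adjusted p of 0.104. Higher members numbered 7 without FBSA 2 or PFPeA 3 and 6 without PFPeA 2, and lower ones 3 without FBSA 2 or PFPeA 3. Of 13 carbonic anhydrases, which make bicarbonate, 2 were higher and 1 lower, beside 4.08% higher and 4.18% lower over all genes. The higher ones were ca2 at 241 ± 26 CPM in FBSA against 142 ± 4.2 CPM in PFPeA (0.76, adjusted p = 0.000162) and ca9 at 15 ± 4.18 CPM in FBSA against 6.47 ± 1.33 CPM in PFPeA (1.22, adjusted p = 0.00212). The lower one was ca15c at 0.261 ± 0.139 CPM in FBSA against 0.872 ± 0.156 CPM in PFPeA (-1.72, adjusted p = 0.0326), whose call was lost without FBSA 1 (-1.39), FBSA 2 (-1.69), PFPeA 1 (-1.76), PFPeA 2 (-1.57) or PFPeA 3 (-1.82). The phosphate transporter gene slc20a1b, at 402 ± 46.8 CPM in FBSA and 226 ± 12.2 CPM in PFPeA, was 0.83 higher (SE 0.07, adjusted p = 1.36e-05). In libraries of whole embryos, a change in the number of cells of a type and a change in RNA per cell cannot be told apart.

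**Figure D2:**
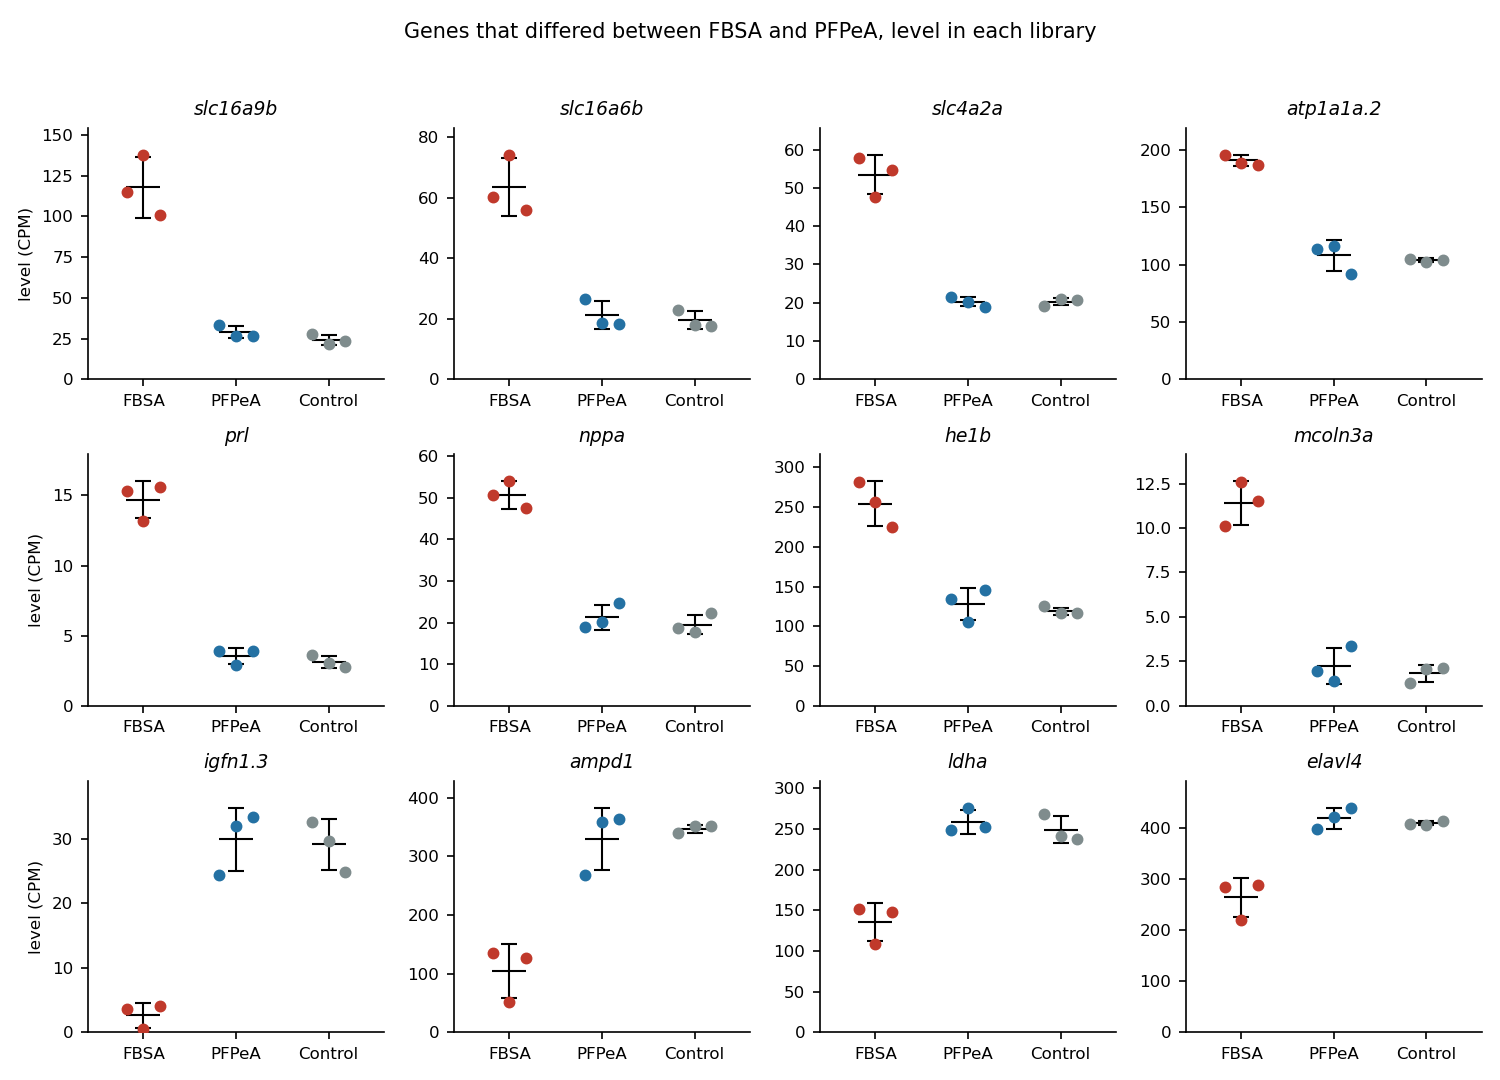
Level of 12 genes in CPM (vertical axes, from 0) in each FBSA (red), PFPeA (blue) and control (grey) library, with the mean and SD as black bars (n = 3). In the first 8 panels the FBSA points lie above all PFPeA and control points (slc16a9b at 101 to 138 CPM against 26.8 to 33.5 and 21.6 to 27.6 CPM), and in the last 4 panels, igfn1.3 to elavl4, they lie below.

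The hormone gene prl, which encodes the pituitary hormone prolactin that regulates salt balance in fish, had 15.3, 13.2 and 15.6 CPM in FBSA. PFPeA libraries had 3.89, 2.91 and 3.92 CPM and the controls 3.61, 3.08 and 2.77 CPM. The FBSA libraries lay above all others and PFPeA overlapped the controls (2.04, SE 0.18, adjusted p = 1.71e-05). Of 14 tested genes of pituitary hormones and their axes 3 were higher and 0 lower, beside 4.08% and 4.18% over all genes. Their median was 0.22. The others called were the growth hormone receptor gene ghrb, at 18.5 ± 1.88 CPM in FBSA and 12.2 ± 1.59 CPM in PFPeA (0.59, adjusted p = 0.00755), and the growth factor gene igf2b, at 15.7 ± 1.31 CPM in FBSA and 11.5 ± 1.14 CPM in PFPeA (0.45, adjusted p = 0.0199), of which a numbered copy exists. The count was 2 without FBSA 1 or PFPeA 3. Among the members that missed the test, the hormone gene pomca differed by 0.11 (95% CI -0.35 to 0.57) and the growth hormone gene gh1, at 0.261 ± 0.108 CPM in FBSA and 0.782 ± 0.259 CPM in PFPeA, by -1.56 (adjusted p = 0.0761).

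The heart secretes natriuretic peptides when its wall is stretched, and both genes were higher in FBSA. In FBSA nppa had 50.6, 54.0 and 47.5 CPM, against 19, 20.2 and 24.8 CPM in PFPeA and 18.6, 17.8 and 22.2 CPM in the controls (1.25, SE 0.14, adjusted p = 0.000106). In FBSA nppb had 5.71, 9.23 and 8.54 CPM, against 0.803, 1.93 and 2.83 CPM in PFPeA and 1.19, 1.68 and 1.85 CPM in the controls (2.08, SE 0.41, adjusted p = 0.00669). For both peptides every FBSA library lay above every PFPeA library, and PFPeA overlapped the controls. Of 29 tested heart genes 4 were higher and 1 lower, beside 4.08% and 4.18% over all genes. Their median was 0.23. The cardiac actin gene actc1a was higher at 1369 ± 122 CPM in FBSA against 1050 ± 92.9 CPM in PFPeA (0.38, adjusted p = 0.00785). The calcium release channel gene ryr2a, at 13.5 ± 0.804 CPM in FBSA and 19.4 ± 1.70 CPM in PFPeA, was the lower one (-0.53, adjusted p = 0.00789). The fourth higher member was myl7, the cardiac myosin light chain gene (0.23, adjusted p = 0.0324), whose call was lost without FBSA 1 (0.23), FBSA 2 (0.23), PFPeA 1 (0.19) or PFPeA 3 (0.22).

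The hatching enzyme genes he1a and he1b were higher in FBSA. In FBSA he1a had 1258, 1322 and 1090 CPM, against 804, 774 and 681 CPM in PFPeA and 640, 705 and 677 CPM in the controls (0.70, SE 0.10, adjusted p = 0.000746). In FBSA he1b had 282, 256 and 225 CPM, against 134, 105 and 146 CPM in PFPeA and 125, 117 and 117 CPM in the controls (0.99, SE 0.16, adjusted p = 0.00368). The lowest FBSA library of each gene lay above the highest PFPeA library. Of 13 genes tested in the hatching gland list 7 were higher and 1 lower, with a median of 0.63, the highest of the 41 lists. That list was taken from earlier work on these same data, so its rank partly reflects how its members were chosen and is no independent support. It also held genes of wider use, among them prl, which was higher, and the ectoderm transcription factor gene tfap2a (-0.34), which was lower.

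Genes of the lysosome, the compartment that breaks down proteins, sugars and lipids, were higher in FBSA. Of 58 tested, 13 were higher and 1 lower, with a median of 0.24. The protease gene ctsla had 1295, 1475 and 1468 CPM in FBSA, against 900, 934 and 908 CPM in PFPeA and 785, 800 and 820 CPM in the controls (0.63, SE 0.07, adjusted p = 0.00013). The largest of these differences was that of mcoln3a, a cation channel of endosomes and lysosomes, with 10.1, 12.6 and 11.5 CPM in FBSA, 1.98, 1.39 and 3.38 CPM in PFPeA and 1.28, 2.07 and 2.13 CPM in the controls (2.34, SE 0.29, adjusted p = 0.000256). Both genes had FBSA libraries well clear of the other groups. The proteases lgmn (0.55), ctsa (0.57), ctsc (0.72) and ctsba (0.59) and the glycosidase hexb (0.51) were also higher. Outside that list, naga, a lysosomal glycosidase gene, was at 71.6, 81.8 and 71.6 CPM in FBSA against 42.5, 36.9 and 36.3 CPM in PFPeA and was higher (0.96, SE 0.08, adjusted p = 1.31e-05). The lysosome count was 8 higher without FBSA 2 or PFPeA 3, and the 1 lower member, the nutrient-sensing gene rragd (-0.60), was not called without any single FBSA or PFPeA library.

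Part of the skeletal muscle genes were lower in FBSA. Of 79 tested, 17 were lower and 3 higher, with a median of -0.09. In FBSA against the control 11 were lower and 5 higher. The list's median was -0.04 for FBSA minus the control and 0.04 for PFPeA minus the control. The gene igfn1.3, which encodes a protein of the immunoglobulin and fibronectin domain family expressed in muscle, had 3.59, 0.470 and 4.02 CPM in FBSA, against 24.3, 32.0 and 33.3 CPM in PFPeA and 32.6, 29.7 and 24.9 CPM in the controls. Its difference was -3.47 (SE 0.46, adjusted p = 0.0016), and the highest FBSA library was well under the lowest PFPeA library. The muscle AMP deaminase gene ampd1, which acts in the purine nucleotide cycle of working muscle, had 136, 51.5 and 126 CPM in FBSA, 269, 358 and 363 CPM in PFPeA and 339, 352 and 351 CPM in the controls (-1.66, SE 0.28, adjusted p = 0.00586). FBSA 2 was the lowest library for both genes. When only the 6 FBSA and PFPeA libraries were fitted igfn1.3 (adjusted p = 0.0802), ampd1 (adjusted p = 0.115) and myhb (adjusted p = 0.0778) were not called. The actin genes acta1a (577 ± 39.5 CPM in FBSA, 956 ± 22.1 CPM in PFPeA, -0.73) and acta1b (4431 ± 828 CPM in FBSA, 7803 ± 546 CPM in PFPeA, -0.82) and the troponin gene tnni2b.2 (-0.93) were lower. The myosin heavy chain gene myhb, at 0.670 ± 0.397 CPM in FBSA and 2.88 ± 1.00 CPM in PFPeA, was lower (-2.1, SE 0.43, adjusted p = 0.0076). The mitochondrial creatine kinase gene ckmt2a had 0.476, 0.532 and 0.530 CPM in FBSA, 1.39, 2.28 and 4.92 CPM in PFPeA and 1.77, 0.914 and 1.08 CPM in the controls. Its difference was -2.47 (adjusted p = 0.00874), and its call was lost without PFPeA 3 (-1.82). For ckmt2a FBSA minus the control was -1.29 (adjusted p = 0.137, not called) and PFPeA minus the control 1.18. The intermediate filament gene desma was higher, at 663 ± 131 CPM in FBSA and 430 ± 21.5 CPM in PFPeA (0.63, adjusted p = 0.00642). Lower muscle members numbered 10 without FBSA 2, 11 without PFPeA 2 and 9 without PFPeA 3. The higher ones numbered 6 without FBSA 1 and 1 without FBSA 2.

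Genes of glycogen and glucose handling moved both ways, with 4 higher and 5 lower of 37 tested and a median of 0.05. The glycogen phosphatase gene epm2a had 4.29, 2.16 and 3.24 CPM in FBSA, against 0.587, 0.664 and 0.386 CPM in PFPeA and 0.673, 0.853 and 0.642 CPM in the controls (2.56, SE 0.33, adjusted p = 0.000385). The debranching enzyme gene aglb had 1.21, 1.13 and 2.90 CPM in FBSA, against 4.14, 7.12 and 7.91 CPM in PFPeA and 6.39, 7.10 and 5.94 CPM in the controls (-1.87, SE 0.32, adjusted p = 0.00322). Both genes were named by a rule that required no overlap between FBSA and PFPeA. Their FBSA libraries did not overlap the control libraries either. The glycogen synthase gene gys1 (61.6 ± 10.7 CPM in FBSA, 96.4 ± 3.55 CPM in PFPeA, -0.65) and the gluconeogenic gene fbp2 (-0.90) were lower, and the glucose transporter gene slc2a12 was higher (1.42, SE 0.22, and 1.57 with its numbered copies summed). Higher members numbered 2 without FBSA 2 or PFPeA 2. Of 51 genes of glycolysis and the hypoxia response 9 were lower and 4 higher, with a median of -0.07. Lactate dehydrogenase ldha had 152, 109 and 148 CPM in FBSA, 249, 276 and 253 CPM in PFPeA and 269, 241 and 238 CPM in the controls (-0.93, SE 0.11, adjusted p = 0.000385). The lower glycolysis members numbered 5 without FBSA 2 or PFPeA 2, and the higher ones 2 without FBSA 2 or PFPeA 3.

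Most neuronal genes lay lower in FBSA than in PFPeA. Of 64 tested, 53 had a difference below 0 and 11 above. By the test 26 were lower and 0 higher, with a median of -0.32, the lowest of the 41 lists. The lists were chosen with earlier results of these data known, so this rank is no independent support. The neuronal markers split: mean elavl3 was 1185 CPM in FBSA, 1150 CPM in PFPeA and 1093 CPM in the controls. Mean stmn1b was 267 CPM in FBSA, 355 CPM in PFPeA and 344 CPM in the controls. The RNA-binding protein gene elavl4 had 285, 221 and 290 CPM in FBSA, against 399, 422 and 440 CPM in PFPeA and 409, 407 and 414 CPM in the controls (-0.66, SE 0.08, adjusted p = 0.000162). The synaptic gene snap25a had 124, 118 and 122 CPM in FBSA, 155, 159 and 159 CPM in PFPeA and 154, 152 and 155 CPM in the controls (-0.38, SE 0.04, adjusted p = 9.07e-05). Every FBSA library of both genes lay below every PFPeA and control library. The splicing regulators celf4 (-0.51) and rbfox1 (-0.49), the cannabinoid receptor partner cnrip1a (-0.63) and the tubulin gene tubb5 (-0.51) were also lower. Leaving out 1 library at a time left between 18 and 30 of the neuronal genes lower and 0 higher.

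Genes of neural progenitors, glia and Notch signalling were higher, with 19 higher and 1 lower of 50 tested and a median of 0.34. Notch ligands on newly forming neurons hold neighbouring cells in the progenitor state. The ligand gene dla had 194, 257 and 197 CPM in FBSA, 152, 140 and 136 CPM in PFPeA and 129, 133 and 135 CPM in the controls (0.59, SE 0.09, adjusted p = 0.00101). The ligands dld (0.55) and dlb (0.50), the Notch modifier lfng (0.40), and the glial genes glula (0.49) and slc1a3a (0.49) were higher too. Of 71 cell cycle genes 22 were higher and 0 lower, with a median of 0.25, among them the replication gene pcna (615 ± 38.3 CPM in FBSA, 493 ± 11.1 CPM in PFPeA, 0.32), the cyclins ccnd1 (0.60) and ccna2 (0.29) and the helicase subunit mcm5 (0.35). Progenitor members numbered 11 higher without FBSA 2 and 10 without PFPeA 3, and cell cycle members 11 without FBSA 2, 13 without PFPeA 2 and 12 without PFPeA 3. The 1 lower progenitor-list member, the glutamate transporter gene slc1a2b (-0.34), was not called without FBSA 2 or any single PFPeA library, and 2 members were lower without FBSA 1.

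The mean level of each list, as log2 above or below the control mean, showed how the libraries lay. For neurons it was -0.186, -0.444 and -0.169 in FBSA 1, 2 and 3, and -0.091, 0.036 and 0.001 in PFPeA 1, 2 and 3. For progenitors it was 0.237, 0.484 and 0.185 in FBSA and 0.107, 0.059 and -0.055 in PFPeA, and for the cell cycle 0.217, 0.392 and 0.120 in FBSA and 0.062, 0.014 and 0.020 in PFPeA. FBSA 2 was the farthest from the controls on all 3 lists, and FBSA and PFPeA did not overlap on any of them. As the members were chosen with earlier results of these data known, this is a description and no independent support.

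**Figure D3:**
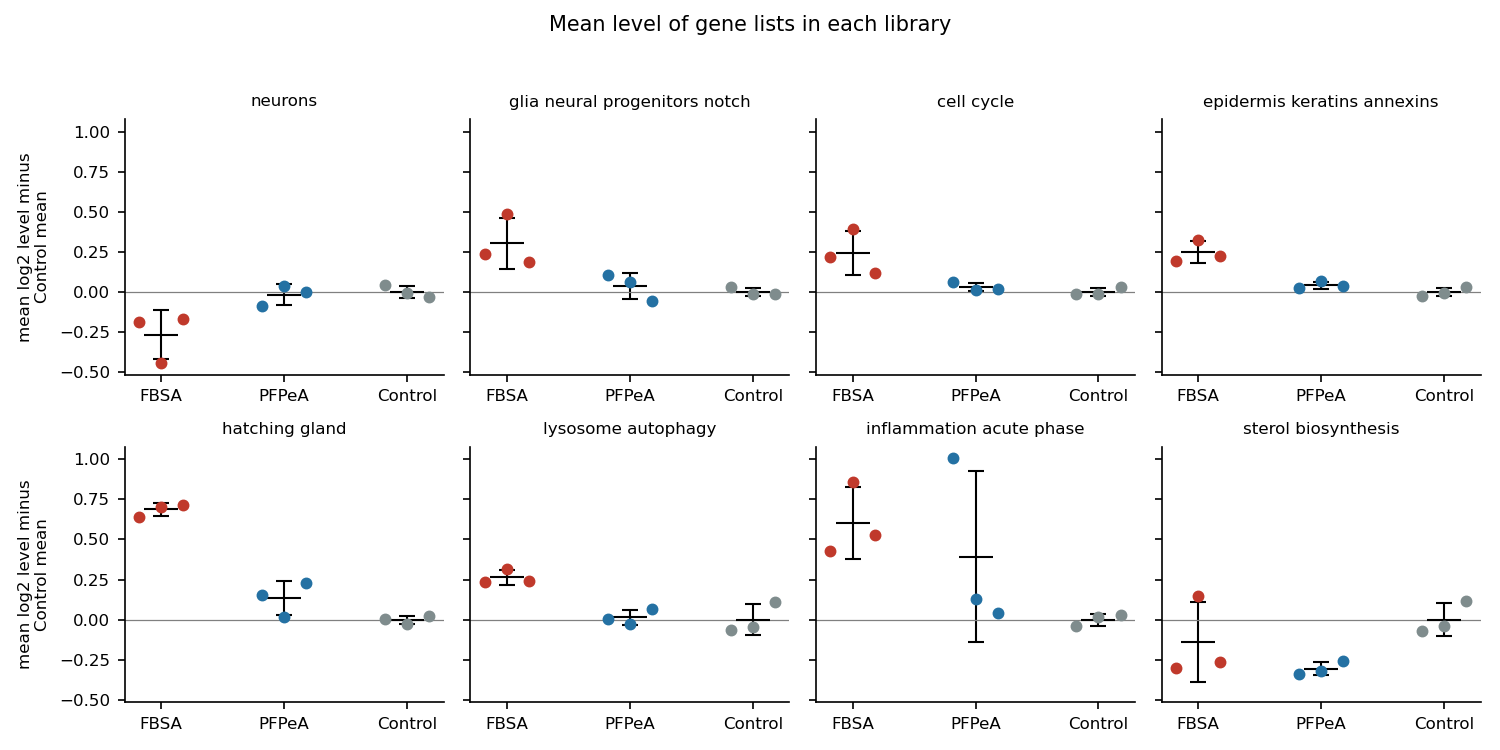
Mean level of 8 gene lists in each library, as the mean over the tested members of log2(CPM + 0.5) minus the control mean (vertical axes), in FBSA (red), PFPeA (blue) and control (grey) libraries, with the mean and SD as black bars (n = 3). FBSA lies apart from PFPeA in the first 6 panels, while PFPeA 1 (1.006) exceeds all FBSA libraries for inflammation and PFPeA lies at -0.337 to -0.261 for sterol biosynthesis.

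In the epidermis list 19 of 55 genes were higher in FBSA and 1 lower, with a median of 0.23. The annexin gene anxa1b had 171, 163 and 162 CPM in FBSA, against 70.4, 53.2 and 59.4 CPM in PFPeA and 55.3, 61.4 and 64.1 CPM in the controls (1.44, SE 0.11, adjusted p = 9.38e-06). The related gene anxa1c was the lower member, at 185 ± 8.91 CPM in FBSA and 258 ± 14.0 CPM in PFPeA (-0.48, adjusted p = 0.000434). The tight junction genes cldne (0.93), cldnb (0.83) and cldnh (0.65) and the desmosome gene dspa (0.50) were higher. Called or not, 38 members of the list had a difference above 0 and 17 below. The skin marker krt4 had a lower mean in FBSA, at 5059 CPM against 6909 CPM in PFPeA and 6073 CPM in the controls. Its 9 libraries ranged from 3171 to 8417 CPM. The marker krt5 was at 1.83 CPM in FBSA, 1.65 CPM in PFPeA and 1.28 CPM in the controls. Higher members numbered 12 without FBSA 2 and 11 without PFPeA 1 or PFPeA 3.

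The compounds overlapped in the mean level of inflammation genes, and 1 PFPeA library stood out. Of 45 tested genes of inflammation and the acute phase 6 were higher and 2 lower in FBSA. The list's median was 0.14 for FBSA minus PFPeA, 0.69 for FBSA minus the control and 0.37 for PFPeA minus the control. Its mean level was 0.427, 0.858 and 0.526 in FBSA 1, 2 and 3, and 1.006, 0.126 and 0.044 in PFPeA 1, 2 and 3. The cytokine gene il1b had 1.21, 2.41 and 1.03 CPM in FBSA, 3.43, 0.411 and 0.354 CPM in PFPeA and 0.0918, 0.152 and 0.161 CPM in the controls (0.14, 95% CI -1.60 to 1.89). The chemokine gene cxcl18b had 2.92, 8.61 and 3.02 CPM in FBSA, 28.0, 1.17 and 1.03 CPM in PFPeA and 0.367, 0.518 and 0.803 CPM in the controls (-1.06, 95% CI -4.11 to 1.99). PFPeA 1 was the highest of the 9 libraries for both, and also for the matrix protease gene mmp9, where FBSA had 14.8 to 37.2 CPM and PFPeA 1 had 47.4 CPM. FBSA and PFPeA overlapped in these 3 genes, and the intervals were wide. Without PFPeA 1 the differences were 2.00 for il1b, 2.14 for cxcl18b and 1.42 for mmp9, and none of the 3 was called. The gene irg1l, named as an immune-responsive gene, had 42.1, 88.3 and 39.8 CPM in FBSA, against 11.2, 6.48 and 5.18 CPM in PFPeA and 6.46, 6.06 and 4.01 CPM in the controls (2.89, SE 0.47, adjusted p = 0.00462). The prostaglandin synthase gene ptgs2a was higher at 44.0 ± 11.4 CPM in FBSA and 28.0 ± 1.69 CPM in PFPeA (0.65, adjusted p = 0.00724). Higher inflammation members numbered 9 without PFPeA 1 and 2 without FBSA 2, PFPeA 2 or PFPeA 3. The lower ones numbered 0 without FBSA 2 or PFPeA 3, and 1 without FBSA 1, FBSA 3, PFPeA 1, PFPeA 2 or Control 2. Of 29 genes of macrophages and neutrophils 2 were higher and 0 lower, a share below the 8.26% called over all genes. In that list 4 were higher without PFPeA 1, and 1 was higher without FBSA 2 or PFPeA 3.

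Polyamine synthesis genes included a pair that moved in opposite directions. Ornithine decarboxylase starts the pathway and antizyme marks it for breakdown. The decarboxylase gene odc1 had 421, 525 and 442 CPM in FBSA, 225, 214 and 249 CPM in PFPeA and 211, 252 and 235 CPM in the controls (1.01, SE 0.11, adjusted p = 0.00021). The antizyme gene oaz1b had 206, 176 and 217 CPM in FBSA, 331, 344 and 328 CPM in PFPeA and 327, 330 and 329 CPM in the controls (-0.74, SE 0.07, adjusted p = 1.5e-05). Neither gene showed overlap between FBSA and the other groups. The spermine oxidase gene smox was 0.54 higher (SE 0.06), and 3 of 17 genes in this list were higher and 2 lower.

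Of 23 genes listed for mitochondrial uncoupling 4 were higher and 2 lower in FBSA, beside 4.08% and 4.18% over all genes. The list's median was 0.03, and the carriers ucp1, ucp2 and ucp3 were among its higher members. In FBSA ucp3 had 7.40, 11.6 and 5.49 CPM, against 2.32, 1.61 and 2.28 CPM in PFPeA and 2.45, 2.38 and 2.81 CPM in the controls (1.98, SE 0.26, adjusted p = 0.000488). The related ucp2 was at 201 ± 21.1 CPM in FBSA and 132 ± 16.4 CPM in PFPeA (0.61, adjusted p = 0.00368), and every FBSA library of both lay above every PFPeA library. The gene ucp1 was at 40.1 ± 16.3 CPM in FBSA and 16.3 ± 4.42 CPM in PFPeA (1.3, adjusted p = 0.0197), and its call was lost without FBSA 2 (0.92), PFPeA 2 (1.13) or PFPeA 3 (1.27). Lower members of that list numbered 0 without FBSA 2 and 1 without FBSA 1 or any single PFPeA library. Genes of oxidative phosphorylation were lower in 9 of 78 and higher in 0, with a median of -0.17. In FBSA against the control 3 of them were lower. The list's median was -0.1 for FBSA minus the control and 0.05 for PFPeA minus the control. The count of 9 rested on single libraries, being 0 without FBSA 2 or PFPeA 3 and 2 without PFPeA 2. Called or not, 71 of the 78 had a difference below 0 between FBSA and PFPeA, and 7 above.

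Stress response genes moved both ways. Of 61 genes of the integrated and endoplasmic reticulum stress responses, 9 were higher and 9 lower, with a median of 0.03. The amino acid response genes chac1 (292 ± 19.6 CPM in FBSA, 157 ± 24.1 CPM in PFPeA, 0.89), slc7a3a (0.78) and slc3a2b (0.54) were higher. The endoplasmic reticulum folding genes pdia4 (66.2 ± 5.68 CPM in FBSA, 93.9 ± 5.20 CPM in PFPeA, -0.51), calr (-0.45) and hyou1 (-0.37) were lower. Without FBSA 2, 5 members were higher. Of 47 genes of the glucocorticoid and circadian list 7 were higher and 1 lower, with a median of 0.28. The glucocorticoid-induced kinase gene sgk1 (0.73, and 0.65 with its numbered copies summed) and the clock gene clocka (1.18) were higher, and the steroid enzyme gene cyp17a1 was lower (-0.61). Higher members numbered 4 without PFPeA 2 or PFPeA 3.

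**Figure D4:**
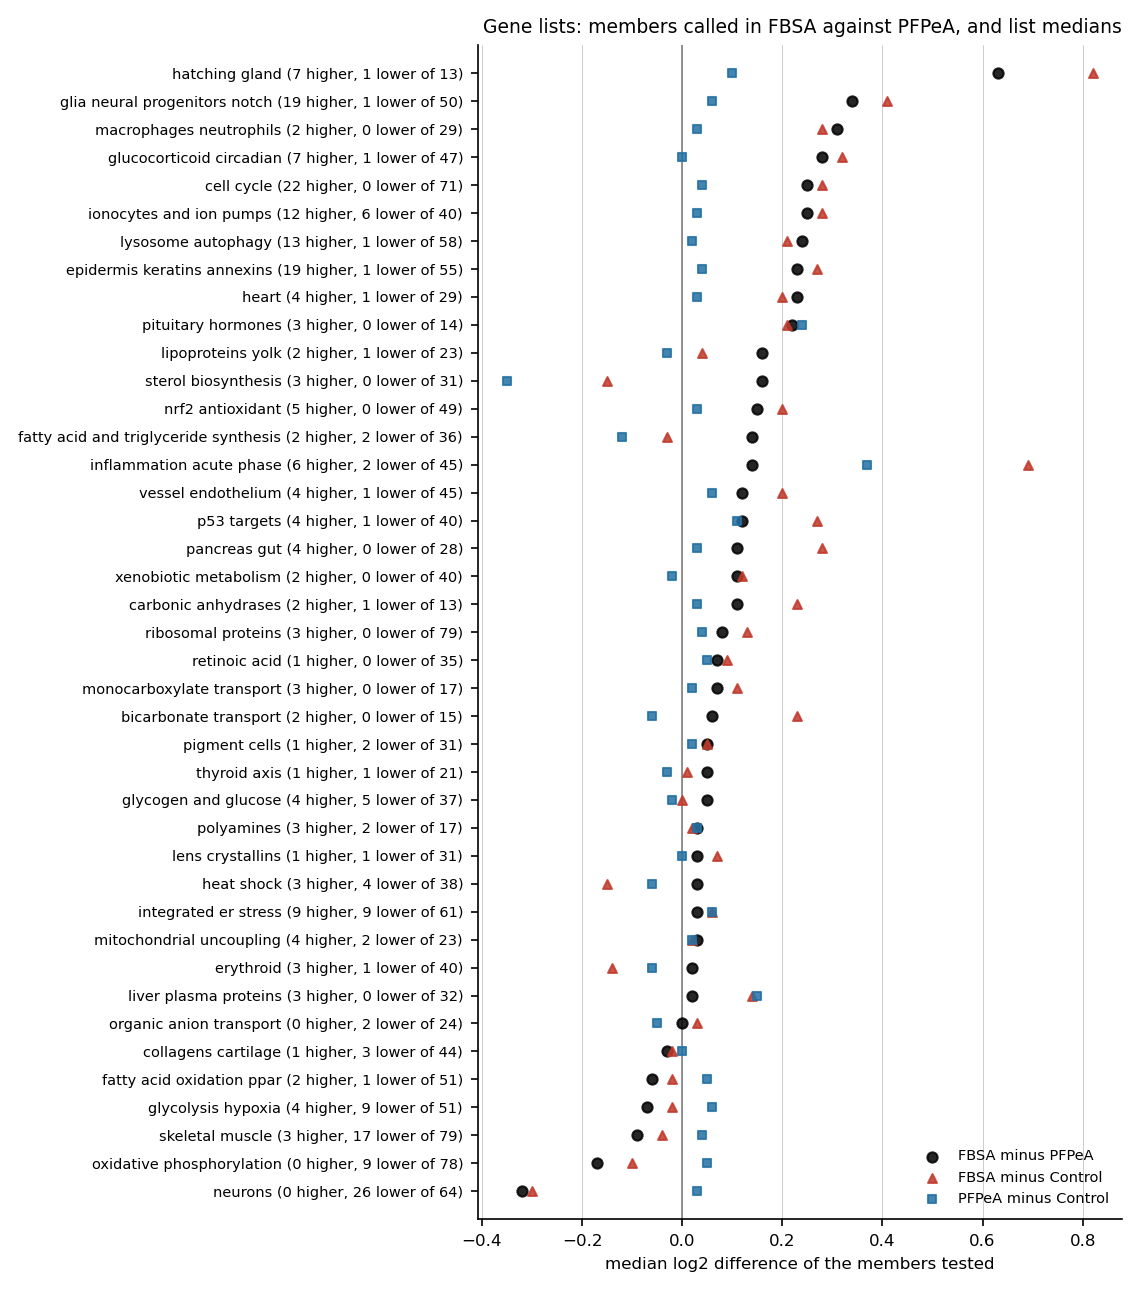
Median log2 difference of the tested members of each of 41 gene lists (horizontal axis) for FBSA minus PFPeA (black circles), FBSA minus control (red triangles) and PFPeA minus control (blue squares), with the number of members called higher and lower in FBSA against PFPeA beside each name. Black circles run from -0.32 for neurons to 0.63 for the hatching gland, and the sterol list has both compounds below the control, at -0.15 for FBSA and -0.35 for PFPeA.

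Sterol synthesis had the lowest median of the 41 lists for PFPeA minus the control, a rank among lists chosen with earlier results known. Its median was 0.16 for FBSA minus PFPeA, -0.15 for FBSA minus the control and -0.35 for PFPeA minus the control, over 31 tested genes. Its mean level was -0.304, 0.147 and -0.265 in FBSA 1, 2 and 3, and -0.337, -0.319 and -0.261 in PFPeA 1, 2 and 3, so that all PFPeA libraries lay below the controls (-0.074, -0.041 and 0.115) and FBSA 2 lay above them. Only 3 members were called between the compounds, all higher in FBSA, and none of the 3 was called without FBSA 2, PFPeA 1 or PFPeA 2. One was the lanosterol demethylase gene cyp51, with 38.7, 76.3 and 42.5 CPM in FBSA, 28.3, 27.7 and 31.1 CPM in PFPeA and 44.0, 38.1 and 55.5 CPM in the controls (0.85, SE 0.22, adjusted p = 0.0374). Its PFPeA libraries lay under all others, and its FBSA and control libraries overlapped. Without FBSA 2 its difference was 0.49, and the call was also lost without PFPeA 1 (0.83), PFPeA 2 (0.83), PFPeA 3 (0.91) or Control 1 (0.85). For lss, the lanosterol synthase gene, FBSA was at 5.62 ± 2.36 CPM, PFPeA at 3.57 ± 0.307 CPM and the controls at 7.50 ± 2.65 CPM (FBSA minus PFPeA 0.65, adjusted p = 0.202).

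In several genes both compounds lay on the same side of the control, and in most of those described here they lay close to each other. The lysosomal membrane receptor gene scarb2a had 41.7, 47.3 and 49.1 CPM in FBSA and 44.5, 47.7 and 47.7 CPM in PFPeA, against 61.1, 72.4 and 76.6 CPM in the controls. FBSA and PFPeA overlapped, with a difference of -0.02 (95% CI -0.24 to 0.21), and both lay below all controls. The desaturase gene fads2 had 4.00, 4.82 and 3.34 CPM in FBSA, 4.32, 4.55 and 6.85 CPM in PFPeA and 7.50, 9.47 and 12.9 CPM in the controls. For fads2 the compounds differed by -0.37 (95% CI -0.83 to 0.09), an interval that reached past 0.5, so closeness could not be told. The mevalonate pathway gene mvda was at 10.9 ± 2.15 CPM in FBSA, 10.1 ± 0.831 CPM in PFPeA and 16.6 ± 2.45 CPM in the controls (FBSA minus PFPeA 0.12, 95% CI -0.23 to 0.48). The linker histone gene h1f0, at 1196 ± 162 CPM in FBSA and 1141 ± 125 CPM in PFPeA, was above the controls at 878 ± 77.2 CPM, and the compounds differed by 0.07 (95% CI -0.14 to 0.28). The cholesterol exporter gene abca1a, also above the controls in both, differed by 0.14 (95% CI -0.02 to 0.30). All 5 were called in FBSA against the control and none in PFPeA against the control by edgeR, where their adjusted p was 0.314 for scarb2a, 0.925 for fads2 and mvda, and 0.955 for h1f0 and abca1a. The authors' deposited table, which holds 1909 genes and no gene with an FBSA Q of 0.05 or more, gave 6 of them a Q under 0.05 for PFPeA against the control, among them scarb2a (log2 -0.61, Q = 1.98e-05), mvda (log2 -0.76, Q = 0.00595) and h1f0 (log2 0.39, Q = 0.00392). These genes were chosen after their values had been seen. Both compounds were set against the same control libraries, so a deviation of the controls would place both on the same side. Control 3, with 9.92% of its reads unaligned, was the highest control for scarb2a, fads2 and mvda. It was not the lowest control for h1f0 or abca1a.

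Over all genes, 8216 (34.4%) had a 95% CI of the difference between FBSA and PFPeA wholly within 0.5 to either side. Of these, 588 were called and 7628 were not. For 14275 genes that were not called the interval reached past 0.5, so whether they differed by that much could not be told at this depth and number of libraries. Among the 2274 genes called in FBSA against the control, 878 (38.6%) were not called against PFPeA, and 393 of those had an interval within 0.5.

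The 105 genes whose control level lay nearer to FBSA comprised 54 higher and 51 lower in FBSA than in PFPeA, and none of the 105 was called against the control for either compound. A numbered copy of the gene existed in the count table for 28.6% of them, against 8.79% of the genes with the control nearer to PFPeA and 28.1% of all genes tested, and reads could be split between copies. The smallest p-values in this set, picked after the values had been seen, included tmx2a, a thioredoxin-related membrane protein gene with such a copy. It had 0.190, 0.282 and 0.125 CPM in FBSA, 2.32, 4.59 and 3.89 CPM in PFPeA and 0.367, 0.244 and 0.321 CPM in the controls (-4.15, SE 0.55, adjusted p = 0.000472). The PFPeA libraries stood far above the other 6, with PFPeA minus the control at 3.52 (95% CI 2.4 to 4.64, adjusted p = 0.154). The neuronal membrane glycoprotein gene gpm6aa had 194, 184 and 191 CPM in FBSA, 247, 236 and 247 CPM in PFPeA and 198, 184 and 215 CPM in the controls (-0.36, SE 0.06, adjusted p = 0.00165). The Wnt pathway transcription factor gene lef1, which has no numbered copy, had 122, 105 and 113 CPM in FBSA, 142, 138 and 136 CPM in PFPeA and 125, 130 and 119 CPM in the controls (-0.29, SE 0.06, adjusted p = 0.00542). In both genes the PFPeA libraries lay above all others. The cytokine signalling inhibitor gene socs9, also without a copy, had 2.35, 2.25 and 2.81 CPM in FBSA, 1.36, 0.949 and 0.836 CPM in PFPeA and 2.05, 1.55 and 2.05 CPM in the controls (1.23, SE 0.24, adjusted p = 0.0056). The glycolytic isomerase gene gpia, likewise without a copy, was at 102 ± 4.99 CPM in FBSA, 127 ± 4.54 CPM in PFPeA and 113 ± 1.4 CPM in the controls (-0.31, adjusted p = 0.00639). For suz12b, a subunit gene of the Polycomb complex, the difference of 1.71 (SE 0.28, adjusted p = 0.00181) became 0.16 (adjusted p = 0.608) with copies summed. The copied genes tmx2a, gpm6aa and bmp2k kept their call with copies summed: tmx2a differed by -4.15 (adjusted p = 0.00865), gpm6aa by -0.32 (adjusted p = 0.0108) and the kinase gene bmp2k, at 0.83 before, by 0.34 (adjusted p = 0.00608). The number of genes with the control nearer to FBSA was 34 without FBSA 2, 50 without PFPeA 2 and 45 without PFPeA 3.

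**Figure D5:**
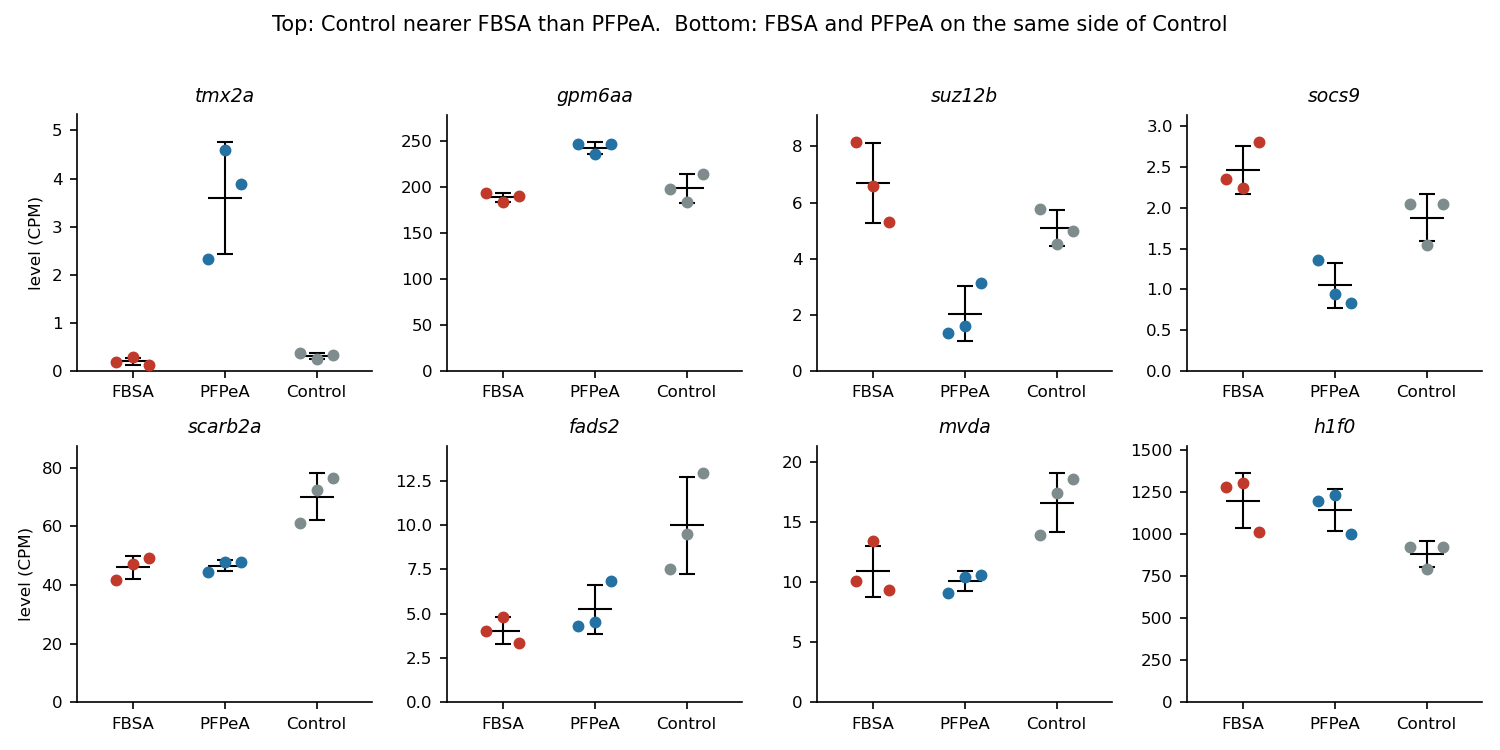
Level in CPM (vertical axes, from 0) in each FBSA (red), PFPeA (blue) and control (grey) library, with the mean and SD as black bars (n = 3). In the top row the control lies nearer to FBSA than to PFPeA, as for tmx2a with PFPeA at 2.32 to 4.59 CPM. In the bottom row FBSA and PFPeA both lie on the same side of the control, as for scarb2a.

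The remaining large increases from PFPeA to FBSA were of genes with low levels. The glucose transporter gene slc5a1 (2.82 ± 1.37 CPM in FBSA, 0.631 ± 0.276 CPM in PFPeA, 2.15), the glyoxylate enzyme gene agxtb (3.00 ± 1.99 CPM against 0.537 ± 0.0566 CPM, 2.48) and the proton pump assembly gene ccdc115 (2.18 ± 1.19 CPM against 0.463 ± 0.0953 CPM, 2.23) lost the call when single libraries were left out. That happened without FBSA 2 for all of them (1.81, 1.79 and 1.92), without PFPeA 3 for slc5a1 (1.97) and ccdc115 (2.12), and without PFPeA 1 for slc5a1 (2.00). The mitochondrial ornithine carrier gene slc25a15a (2.12), lrrc58a (2.1) and the matrix protein gene tinagl1 (2.05) kept it without any single library. The entry rnaseh2b had the largest difference of all those named, 5.53 (SE 1.35), at 1.52, 5.85 and 4.89 CPM in FBSA, 0, 0.126 and 0.129 CPM in PFPeA and 4.89, 0.305 and 1.08 CPM in the controls. For rnaseh2b FBSA minus the control was 0.96 (adjusted p = 0.614) and PFPeA minus the control -4.58 (adjusted p = 0.955). Its control level thus lay nearer to FBSA than to PFPeA. With its numbered copies summed the difference between FBSA and PFPeA was 0.00. Its call was lost without FBSA 2 (5.19), FBSA 3 (5.39), PFPeA 1 (4.96), PFPeA 2 (5.93) or PFPeA 3 (5.95). By contrast ppdpfb, the gene of a factor named for pancreatic progenitors, had 456, 599 and 477 CPM in FBSA against 240, 242 and 244 CPM in PFPeA (1.08, SE 0.08, adjusted p = 5.88e-06).

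Other genes were much lower in FBSA than in PFPeA. The galectin 3 binding protein gene lgals3bpb had 2.03, 1.69 and 1.71 CPM in FBSA, 4.91, 7.27 and 5.56 CPM in PFPeA and 7.65, 4.66 and 4.58 CPM in the controls (-1.70, SE 0.26, adjusted p = 0.00144). The transcription elongation regulator gene tcerg1l was at 0.763 ± 0.374 CPM in FBSA and 2.35 ± 0.032 CPM in PFPeA (-1.61, adjusted p = 0.00532). Both kept the call without any single library. The other 4 have numbered copies, between which reads could be split. They were the clathrin light chain gene clta (7.03 ± 0.632 CPM in FBSA, 30.5 ± 10.5 CPM in PFPeA, -2.12), the ATP synthase inhibitor gene atpif1b (-1.91), the polarity gene pard6a (-3.44) and the ubiquitin-conjugating enzyme gene ube2g1a (-1.71). None of these 4 was called in FBSA against the control (adjusted p = 0.109, 0.525, 0.251 and 0.0766 in that order). FBSA minus the control was -1.05, -0.5, -1.79 and -1.44, and PFPeA minus the control was 1.06, 1.42, 1.65 and 0.27. The call of atpif1b was lost without FBSA 2 (-1.93), and its difference was -1.04 without PFPeA 1. The call of pard6a was lost without FBSA 1 (-2.86), FBSA 2 (-3.52), PFPeA 2 (-3.45) or PFPeA 3 (-3.38), and its difference was -4.23 without FBSA 3. That of ube2g1a was lost without any single FBSA or PFPeA library or without Control 2 (-1.54 to -1.85 over all single libraries left out). With copies summed, clta differed by -2.12 (adjusted p = 0.0071), ube2g1a by -1.67 (adjusted p = 0.0459), pard6a by -0.46 (adjusted p = 0.0491) and atpif1b by -1.78 (adjusted p = 0.123). The call of clta was kept without any single library.

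Across all 41 lists, 294 of 1569 tested genes were called (18.7%), 182 higher and 112 lower in FBSA. Lists and members were chosen with earlier results of these data known, so that share cannot be read as enrichment. In some lists the share called was near or below the 8.26% over all genes, though small lists give coarse shares. Among these were organic anion transporters (0 higher and 2 lower of 24), retinoic acid (1 and 0 of 35) and xenobiotic metabolism (2 and 0 of 40). Fatty acid oxidation with PPAR targets (2 and 1 of 51), the thyroid axis (1 and 1 of 21) and lens crystallins (1 and 1 of 31) were also among them. The medians of the lists just named ran from -0.06 to 0.11, and each of their counts lay between 0 and 3 with any single library left out. Others included ribosomal proteins (3 and 0 of 79), macrophages and neutrophils (2 and 0 of 29) and collagens and cartilage (1 and 3 of 44). Liver plasma proteins (3 and 0 of 32), pigment cells (1 and 2 of 31) and sterol synthesis (3 and 0 of 31) were near that share too.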

How the data were processed

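The authors deposited raw read counts per gene for all 15 libraries. Per the submitters' processing notes, the tools included HISAT2 and HTSeq, Bowtie2 and RSEM, and DESeq2, with the build GRCz11; neither versions nor roles are named. The sources used here do not state the strand setting of the counting. The 5 category entries that name no gene were left out. The table holds 47048 gene entries, of which 16469 are numbered copies holding 5.12% of the counts. The authors' deposited log2 fold changes and Q values against the control were used only where named. The other 60 value columns of that table were not used. Columns were mapped to samples by name, and 1 PFBS column repeats another's header, so that PFBS libraries served only as a group.

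Counts were fitted in edgeR 4.0.16 (R 4.3.3, limma 3.58.1) with TMM scaling, filterByExpr and the robust quasi-likelihood test. All 15 libraries in 5 groups shared the dispersion, and p-values were adjusted by Benjamini-Hochberg over 23874 genes. DESeq2 1.42.0, DESeq2 size factors, fits with fewer libraries, a replicate block, other filters, summed copies and leaving out each library were alternatives. CPM levels are TMM-scaled. SE is the absolute log2 difference divided by the square root of F. List means used log2(CPM + 0.5). The script was tested on simulated data.

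Genes were named as the 12 largest increases and 12 largest decreases among called genes with a symbol, a mean of at least 1 CPM and groups that did not overlap, then the 8 smallest p-values, then list members by p or role. Members and lists were chosen with earlier results of these data known. Of 1807 listed symbols, 1677 matched by symbol and 76 by synonym. No sequence is printed.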

Additional observations from a re-analysis of the deposited data

How the results depend on the processing

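The size of the comparison depended on the fit, and the sign of the 1971 called differences was the same under every alternative except that 5 changed sign with numbered copies summed. With the dispersion from the FBSA and PFPeA libraries alone, 438 genes were called (293 higher, 145 lower; 95 list members). That fit gives no value against the control. With FBSA, PFPeA and control libraries only, 1196 genes were called, of which 516 were lower, 47 had the control nearer FBSA and 1149 nearer PFPeA, and the counts against the control were 1503 for FBSA and 1 for PFPeA. Same-numbered libraries did not deviate together (correlations -0.046 to 0.078), so numbers were not taken as pairs; with a replicate block 870 genes were called (520 higher, 350 lower; 34 nearer FBSA, 836 nearer PFPeA; 179 list members) and 1078 in FBSA against the control. DESeq2 called 2841, of which 1521 were lower and 221 had the control nearer FBSA, and 15 in PFPeA against the control, where 1 was called without a low-count filter. Without both FBSA 2 and PFPeA 1, chosen because earlier results of these data showed them to stand apart, 839 were called (445 higher, 394 lower; 67 nearer FBSA, 772 nearer PFPeA; 181 list members) and 1096 in FBSA against the control. Without both Control 3 and 42FTS 2, chosen for their share of unaligned reads (9.92% and 9.94%, against 6.32% to 6.73% in the other 13), that count was 1228. Leaving out 1 library at a time gave 787 to 1877 genes called, 432 to 970 higher, 355 to 939 lower, 34 to 156 nearer FBSA, 753 to 1798 nearer PFPeA and 167 to 309 list members, with 1020 to 2274 called in FBSA and 0 to 2 in PFPeA against the control. Of the 32 genes named by rule, 13 were called under all 19 alternatives. With the FBSA and PFPeA libraries alone, 12 of the 32 were not called (irg1l, ccdc115, slc5a1, lrrc58a, nppb, igfn1.3, pard6a, myhb, atpif1b, aglb, ampd1 and tcerg1l), nor were ca15c, ucp1, lef1, socs9, atp1a3a, atp1b2a, actc1a, myl7, ctsc, desma, fbp2, ptgs2a, cyp51, rbfox1, slc1a3a, lfng, ccnd1, ccna2, mcm5, cyp17a1, clocka and slc7a3a. With the replicate block, 9 of the 32 were not called (rnaseh2b, slc25a15a, lrrc58a, igfn1.3, pard6a, myhb, atpif1b, ube2g1a and ampd1), nor were ca15c, ucp1, actc1a, myl7, ctsc, desma, fbp2, ptgs2a and cyp51. Without both FBSA 2 and PFPeA 1, rnaseh2b, agxtb, ccdc115, slc5a1, slc25a15a, tinagl1, pard6a, clta, atpif1b and ube2g1a were not called. Nor were ca15c, lef1, myl7, ryr2a, ctsba, cyp51, sgk1 and clocka. The genes ghrb, igf2b, tfap2a, rragd and slc1a2b were not recomputed one by one. The difference of hmg20b was -1.03 and became 0.03 with copies summed.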
